A study of Phaffia rhodozyma with 29 samples.

Results

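A strain of the red yeast Xanthophyllomyces dendrorhous (Phaffia rhodozyma) whose transcription factor Sre1 carries a FLAG epitope was compared with the wild type by RNA-seq, across all genes. The comparison was chosen by its labels and rests on 6 of the 18 RNA-seq libraries in a series of 29 samples: 3 of the tagged strain and 3 of one wild-type set, called wild type (N) after the suffix of its labels. All 6469 genes of the deposited count tables belong to it. Of these, 6228 passed the filter on low counts and were tested, and 164 had no read in any of the 6 libraries.

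Sre1 is the fungal member of the sterol regulatory element-binding proteins. In the members studied best, in mammals and fission yeast, the protein is anchored in membranes of the endoplasmic reticulum, and when sterols are short its amino-terminal part is cut free, enters the nucleus and activates genes of sterol synthesis. In X. dendrorhous the mevalonate pathway feeds both ergosterol, whose synthesis needs the C-22 sterol desaturase encoded by CYP61, and the carotenoids, chiefly astaxanthin, that colour the cells.

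All strains derive from CBS 6938 and were grown under standard conditions to the late exponential phase, with 3 biological replicates each per the study's design text. Beside the tagged strain, the RNA-seq groups are cyp61-, the cyp61- sre1- double mutant, sre1-, a second wild-type set called wild type (Ne), and wild type (N). The design text names 2 tagged strains, CBS.FLAG.SRE1N and, with a mutated CYP61, CBS.cyp61-.FLAG.SRE1. Which one was sequenced for RNA is not told by the labels of those libraries. Whether the tagged libraries also carry the cyp61 mutation is therefore not given, nor is what the construct named SRE1N holds. No label names the control among the 2 wild-type sets. Wild type (N) was used because its count tables have headers of the same form as those of the tagged strain.

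The tagged libraries held 9300589, 18326749 and 20663214 counted reads in replicates A, B and C, and the wild type (N) libraries 15879183, 16866376 and 17924134. The files give gene numbers and contigs with no gene name, product or sequence. The levels of SRE1 and CYP61 and the lists of mevalonate, ergosterol and carotenoid genes were therefore not analysed here, and genes are described by their values and their place on the contigs. Levels are read counts scaled to a common library size (CPM) but not for gene length, so they compare one gene across libraries and not one gene with another.

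Expression differed broadly in the tagged strain, where 3380 genes passed edgeR's quasi-likelihood test at a Benjamini-Hochberg adjusted p under 0.05, which is 54.3% of those tested. The 1743 higher genes made up 28.0% and the 1637 lower genes 26.3%. Most changes were modest, with a median absolute log2 fold change of 0.52 over all tested genes. At least 1.5-fold differences were called for 1313 higher and 1317 lower genes. At least 2-fold differences were called for 632 higher genes (10.1% of those tested) and 760 lower genes (12.2%), together 1392 genes (22.4%). There were 127 higher and 175 lower genes at 4-fold or more, 32 higher and 60 lower at 8-fold or more, and 10 higher and 15 lower at 16-fold or more.

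The middle 50% of log2 fold changes, tagged over wild type (N), lay between -0.52 and 0.51, and the middle 90% between -1.62 and 1.40. For 4260 genes (68.4% of those tested), the 3 tagged libraries lay wholly above or wholly below the 3 wild type (N) libraries. This held for 3318 of the 3380 called genes and for 942 of the 2848 genes that were not called. Of the genes not called, 1260 (44.2%) had a 95% confidence interval that stayed within a 1.5-fold difference in either direction, and 2455 (86.2%) one that stayed within 2-fold. For the other genes not called, a 2-fold difference remained within reach in this fit, whose estimate of spread is shared over all 18 libraries.

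The balance between higher and lower genes depended on scaling. With the trimmed mean of M values (TMM), 51.6% of the called genes were higher in the tagged strain, and the median log2 fold change of all genes was 0.02. Scaled by library totals alone, a setting chosen after seeing the data, 2323 genes were higher and 1067 lower, so that 68.5% of calls were higher and the median of all genes moved to 0.25. The larger direction then turned round at 2-fold, with 951 higher and 542 lower genes, at 4-fold, with 181 higher and 132 lower, and at 8-fold, with 51 higher and 44 lower. At 16-fold there were 12 in each direction. With wild type (Ne) as the control instead, 3673 genes were called. Of the 3380 calls against wild type (N), 1878 were called in the same direction there and 214 in the opposite one. The 2 wild-type sets also differ in the form of their deposited tables, so that the set of tables and the wild-type libraries cannot be told apart.

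**Figure D1:**
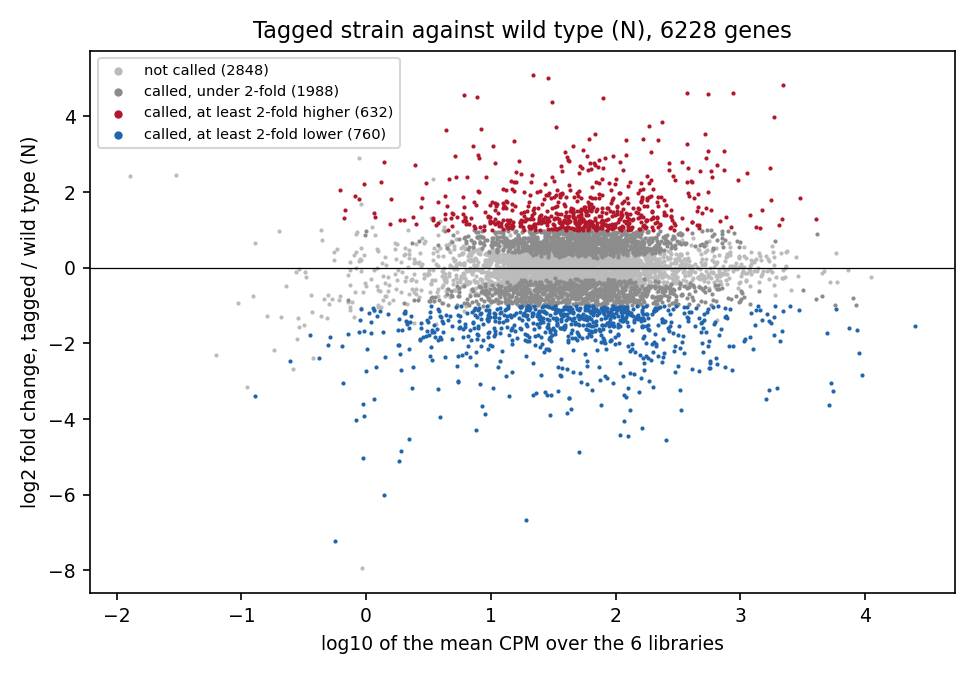
Log2 fold change, tagged over wild type (N), against the mean level of each tested gene in CPM on a log axis, over the 6 libraries. Points mark genes called at least 2-fold higher or lower; the 632 higher and 760 lower genes spread over the whole range of levels, and among the genes with 1000 CPM or more the lower ones are the larger group, 34 against 13.

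The 4 genes that follow show how far single transcripts moved. They have the largest fold change in each direction, 2 per direction, among called genes with a mean of at least 100 CPM and no overlap between the groups, conditions that 180 higher and 234 lower genes met. Since these genes were selected on this comparison, their values in it describe the extremes.

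The gene g904, on contig 3, had 3408, 3914 and 5528 CPM in the tagged libraries, against 124.9, 175 and 150.02 CPM in wild type (N). The lowest tagged library stood far above the highest wild type (N) library. The fold was 28.5, a log2 fold change of 4.84 ± 0.35 (SE), with an adjusted p of 8.7e-08 in edgeR's quasi-likelihood test.

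The gene g944, also on contig 3, had 675, 811 and 684 CPM in the tagged libraries and 23.8, 40.8 and 23.5 CPM in wild type (N). The groups were far apart, and the tagged libraries lay close together, at a mean of 724 ± 75.8 CPM (SD, n = 3). Its log2 fold change was 4.62 ± 0.54 (SE), or 24.6-fold, with an adjusted p of 6.14e-06 in edgeR's quasi-likelihood test.

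Among the genes that fell, g3478 on contig 0 had 22.5, 17.1 and 22.7 CPM in the tagged libraries, against 596, 366 and 496 CPM in wild type (N). All 3 tagged libraries were low. The level was 23.4-fold lower in the tagged strain (log2 fold change -4.55 ± 0.87 SE, adjusted p of 0.000434 in edgeR's quasi-likelihood test). The standard error was the largest of the 4 genes and comes from the fit of all 18 libraries, not from these 6 alone. Fitted with the 2 groups alone, the log2 fold change was -4.56 with an adjusted p of 3.17e-06 in the same edgeR test. In that fit the edgeR adjusted p was larger than in the main fit for g904 (3.71e-06) and g3088 (4.83e-06). For g944 it was smaller (3.71e-06).

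The gene g3088, also on contig 0, had 9.31, 13.8 and 9.69 CPM in the tagged libraries and 288, 163 and 268 CPM in wild type (N). Again the groups did not come near each other. The level was 21.8-fold lower in the tagged strain, a log2 fold change of -4.45 ± 0.48 (SE), with an adjusted p of 3.01e-06 in edgeR's quasi-likelihood test.

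**Figure D2:**
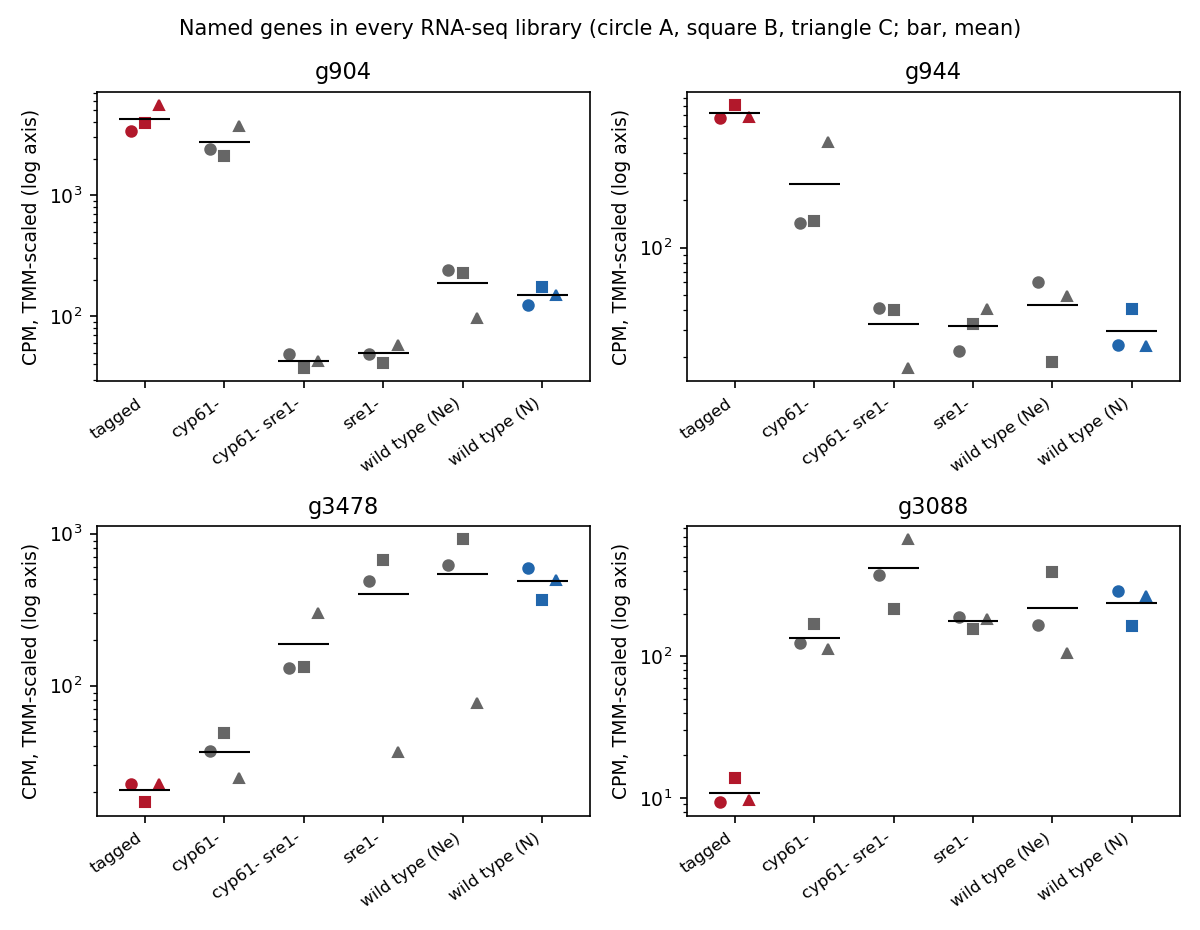
Level of g904, g944, g3478 and g3088 in each library of the 6 RNA-seq groups, in CPM on a log axis, one point per library. In each panel the tagged libraries stand apart from wild type (N), and the cyp61- libraries stand with the tagged ones for g904 but nearer wild type (N) for g3088.

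The same genes differed in how they stood in the other strains. The gene g904 was also high in cyp61-, at 2384, 2115 and 3722 CPM, and the tagged strain exceeded cyp61- by a log2 fold change of 0.64 ± 0.30 (SE), which did not pass edgeR's quasi-likelihood test (adjusted p of 0.113). Replicate letters were also fitted as a block, a pairing of the tagged strain and cyp61- inferred from these data and not tested. A pairing chosen in this way favours a smaller spread. In that fit of these 6 libraries the difference was 0.64 ± 0.19 (SE) and passed (edgeR adjusted p of 0.0221). It also passed in the fit of the 4 groups from one set of tables (edgeR adjusted p of 0.0472) and without cyp61- replicate C (0.0447). In every other alternative the difference did not pass, from 0.0760 (DESeq2 adjusted p) to 0.372 (edgeR adjusted p, without tagged replicate C). The same 6 libraries without the block gave an edgeR adjusted p of 0.117. In the strains that lack Sre1 the gene was low, between 37.3 and 48.7 CPM in the double mutant and between 41.3 and 58.4 CPM in sre1-. Wild type (Ne) ranged from 97.3 to 243 CPM.

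For g944, cyp61- stood between the tagged strain and wild type (N), at 144, 149 and 474 CPM. The tagged strain was higher than cyp61- by a log2 fold change of 1.5 ± 0.47 (SE), with an adjusted p of 0.0227 in edgeR's quasi-likelihood test. This call was lost without tagged replicate B (adjusted p of 0.0544 in the same edgeR test), without cyp61- replicate A (0.0934) and without cyp61- replicate B (0.108). Its level in the double mutant, sre1- and wild type (Ne) lay between 17.0 and 60.8 CPM.

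For g3478, cyp61- was low as well, at 37.1, 48.6 and 24.7 CPM, and its difference from the tagged strain did not pass edgeR's quasi-likelihood test (log2 fold change of -0.83 ± 0.77 SE, adjusted p of 0.435). With the 6 libraries alone it passed, both without the block (-0.85 ± 0.24 SE, edgeR adjusted p of 0.0260) and with it (-0.80 ± 0.23 SE, edgeR adjusted p of 0.0186). In the fit of the 4 groups from one set of tables it did not pass (-0.82, edgeR adjusted p of 0.0550). The double mutant had 130.4, 133 and 300 CPM. In sre1- and wild type (Ne), replicate C was far below the other libraries, at 36.4 CPM in sre1- and 76.9 CPM in wild type (Ne), where replicates A and B had 490 to 673 CPM in sre1- and 624 to 916 CPM in wild type (Ne).

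The gene g3088 was low in the tagged strain alone among the 6 groups. It had 124, 169 and 113 CPM in cyp61-, 214 to 668 CPM in the double mutant, 157 to 188 CPM in sre1- and 105 to 390 CPM in wild type (Ne). The tagged strain was below cyp61- by a log2 fold change of -3.62 ± 0.46 (SE), with an adjusted p of 6.82e-05 in edgeR's quasi-likelihood test.

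With TMM, the genes that take the most reads leaned to lower levels. Of the 129 genes with a mean of 1000 CPM or more, 34 (26.4%) were called at least 2-fold lower in the tagged strain and 13 (10.1%) at least 2-fold higher. Of the 686 tested genes under 10 CPM, 161 (23.5%) were lower and 74 (10.8%) higher by that rule. Between these classes the directions were closer. Among the 3953 genes with 10 to 100 CPM, 376 (9.51%) were higher and 365 (9.23%) lower. Among the 1460 genes with 100 to 1000 CPM, 169 (11.6%) were higher and 200 (13.7%) lower. Under library totals alone, 148 genes averaged 1000 CPM or more, with 25 at least 2-fold lower and 17 at least 2-fold higher. Their median log2 fold change was then 0.09, against 0.25 over all genes.

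Genes were also ranked by wild type (Ne), whose libraries lie outside the contrast but enter the shared estimate of spread. Of its 20 genes with the most reads, 14 were called lower in the tagged strain, 11 of them by at least 2-fold, and 6 were not called. Their median log2 fold change was -1.01, against 0.02 over all genes. Among the top 50, 26 genes were lower and 1 higher, with a median of -0.67. Among the top 500, 159 were lower and 86 higher, with a median of -0.14. Under library totals alone, where the median of all genes was 0.25, the top 20 still had 14 lower genes and a median of -0.77. The top 500 then had 126 lower and 136 higher genes and a median of 0.09, so their balance of calls turned round.

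**Figure D3:**
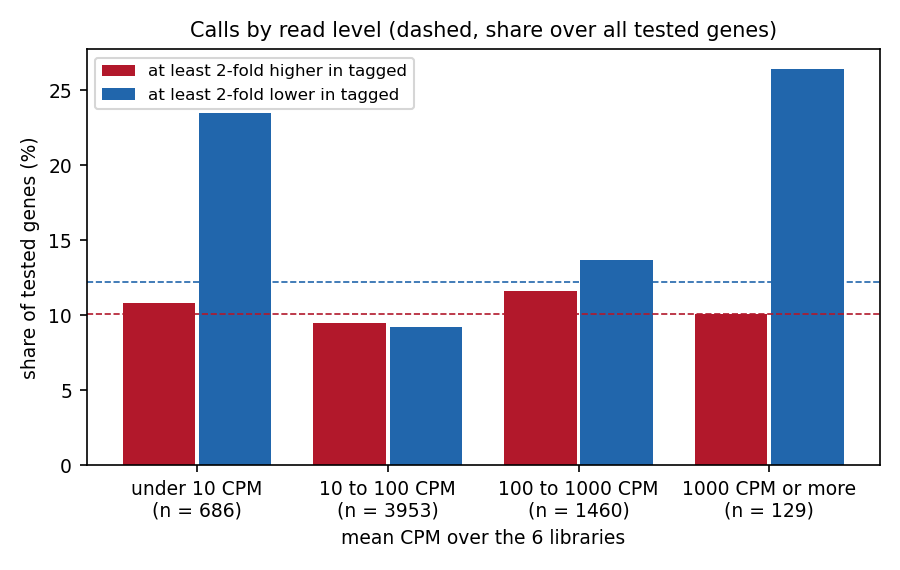
Share of tested genes called at least 2-fold higher or lower in the tagged strain, in percent, by mean level over the 6 libraries. The lower share is 23.5% in the class under 10 CPM and 26.4% in the class of 1000 CPM or more, while the higher share stays between 9.51% and 11.6% in all 4 classes.

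The gene with the most reads over the 6 libraries, on contig 0, was picked after its values were seen. It had 12415, 15307 and 11300 CPM in the tagged libraries, against 38864, 34508 and 40173 CPM in wild type (N). It alone took 1.49%, 1.90% and 1.43% of all counts in the tagged libraries and 4.28%, 3.70% and 3.97% in wild type (N). The groups did not overlap, and the log2 fold change was -1.54 ± 0.30 (SE), with an adjusted p of 0.000426 in edgeR's quasi-likelihood test.

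Reads were less concentrated in the leading genes in the tagged strain. The 10 genes with the most reads in each library held 8.49%, 9.54% and 8.48% of its counts in the tagged strain and 15.4%, 14.95% and 16.5% in wild type (N). The means were 8.84% ± 0.608 and 15.6% ± 0.801 (SD, n = 3 each), a difference of -6.77 percentage points. Every tagged library was below every wild type (N) library, and the two-sided exact permutation test gave p = 0.1, the smallest that 3 against 3 libraries allow. For the top 50 genes the share was 22.7% in the tagged strain and 32% in wild type (N), and for the top 100 genes 31.4% and 40.4%. Each of the 3 tests had the same exact permutation p, which Benjamini-Hochberg adjustment left at 0.1.

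The 632 genes called at least 2-fold higher held 16.4%, 15.1% and 16.9% of all counts in the tagged libraries, against 4.31%, 4.28% and 3.89% in wild type (N). The 760 genes called at least 2-fold lower held 10.8%, 12.5% and 10.1% in the tagged libraries and 31.9%, 31.2% and 33.2% in wild type (N). These gene sets were chosen on these libraries, so the values give the size of the shift in reads and test nothing.

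In the strains outside the comparison, the higher set held 8.56%, 6.95% and 10.9% of counts in cyp61-, 4.00%, 4.18% and 3.36% in the double mutant, 5.54%, 5.83% and 8.96% in sre1-, and 6.05%, 5.36% and 8.58% in wild type (Ne). The lower set held 22.2%, 26.4% and 17.9% in cyp61-, 33.4%, 29.5% and 37.2% in the double mutant, 24.7%, 24.3% and 18.6% in sre1-, and 25.2%, 27.7% and 20.1% in wild type (Ne). For both sets the double mutant lay around wild type (N). Replicate C of cyp61-, sre1- and wild type (Ne) lay nearer the tagged values than replicates A and B did.

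**Figure D4:**
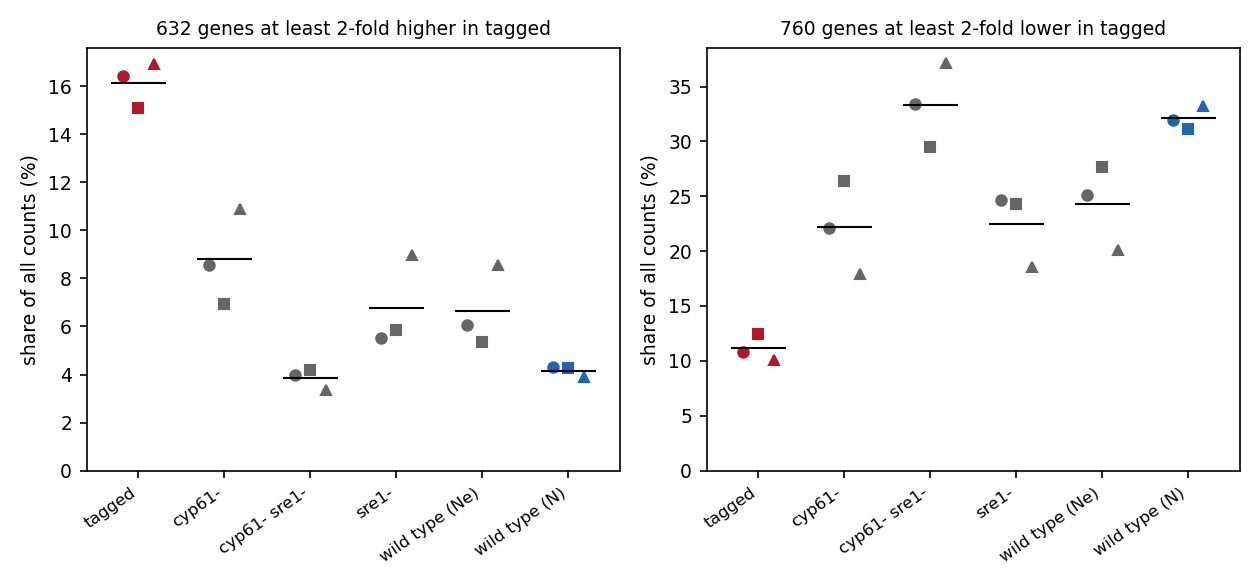
Percent of all counts held by the 632 genes called at least 2-fold higher and the 760 called at least 2-fold lower in the tagged strain, one point per library in the 6 groups. The tagged libraries hold 15.1% to 16.9% in the higher set, against 3.89% to 4.31% in wild type (N), and 10.1% to 12.5% in the lower set, against 31.2% to 33.2%.

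The tagged strain was also set against cyp61- directly, a difference in which wild type (N) cancels. In that contrast 2004 genes (32.2% of those tested) were called by edgeR's quasi-likelihood test, 971 higher (15.6%) and 1033 lower (16.6%) in the tagged strain. The larger direction depended on scaling, with 773 higher and 1169 lower under upper-quartile factors and 1034 higher and 722 lower under library totals alone. The count of calls was 2632 in the fit of the 4 groups from one set of tables. It fell to 1303 without tagged replicate A and to 1155 without cyp61- replicate B. Fitted with the replicate block, 2805 genes were called in the 6 libraries alone, against 2205 in the same libraries without the block. The pairing was inferred from these same libraries, which favours a smaller spread, so the rise tests nothing.

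Over the 632 higher genes, the median log2 fold change against wild type (N) was 1.38 for the tagged strain, 0.85 for cyp61- and -0.03 for the double mutant. Of these genes 391 were called higher and 2 lower in cyp61-, where 16.8% of all tested genes were called higher and 15.2% lower. In the double mutant 2 were called higher and 10 lower, where 0.225% of all tested genes were called higher and 0.546% lower. Over the 760 lower genes the medians were -1.48 for the tagged strain, -0.74 for cyp61- and -0.02 for the double mutant, against medians between -0.01 and 0.02 over all genes. In cyp61- 411 of them were called lower and 8 higher. All of these contrasts share the wild type (N) libraries on which the sets were chosen, so nothing is read from the counts. Between the tagged strain and cyp61-, 318 of the 632 genes were called higher and 1 lower in the tagged strain, and 440 of the 760 were called lower and 320 were not called, against 15.6% higher and 16.6% lower over all tested genes. The sets were chosen for being high or low in these same tagged libraries, which favours those directions, so these counts are a description and test nothing.

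A few genes were near 0 in one group. With under 1 CPM in all 3 libraries of one group and at least 5 CPM in all 3 of the other, on CPM from library totals, 2 genes were higher in the tagged strain and 2 lower. In the group near 0, these genes had 3 to 16 reads per library. Both higher genes lay on contig 3. The one had 8.82, 10.1 and 24.9 CPM in the tagged libraries, against 0.567, 0.534 and 0.446 CPM in wild type (N). Outside the comparison it reached 4.60 CPM in wild type (Ne) replicate A and 3.44 CPM in cyp61- replicate C. The rest of those libraries had 0.300 to 1.44 CPM. The other had 13.3, 17.8 and 24.6 CPM in the tagged libraries, against 0.567, 0.711 and 0.781 CPM in wild type (N), and 5.70, 5.62 and 13.7 CPM in cyp61-.

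Of the lower genes, the one on contig 4 had 0.430, 0.600 and 0.339 CPM in the tagged libraries, against 41.0, 41.9 and 36.8 CPM in wild type (N). Its log2 fold change was -6.66 ± 0.51 (SE), with an adjusted p of 1.17e-07 in edgeR's quasi-likelihood test. The tagged libraries held 4 to 11 reads each of this gene. It was low in wild type (Ne) as well, at 1.43 to 2.90 CPM, where each library still lay above the tagged ones. No other group reached the level of wild type (N) at this gene. It had 13.9, 11.6 and 10.99 CPM in cyp61- and 4.71, 5.29 and 5.16 CPM in the double mutant. In sre1- it had 0.274, 4.23 and 1.47 CPM, with replicate A below every tagged library. The one on contig 5 had 0.323, 0.546 and 0.774 CPM in the tagged libraries and 6.74, 9.13 and 7.59 CPM in wild type (N), while wild type (Ne) had 16.4 to 39.8 CPM and sre1- 86.6 to 187 CPM. Both wild-type sets exceeded the tagged strain at these genes, by different amounts.

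Genes that moved lay beside each other more often than the overall shares. After a gene called at least 2-fold higher, the gene with the next number on the same contig was also higher by that rule in 115 of 623 cases (18.5%, against 10.1% of all tested genes) and lower in 41 (6.58%, against 12.2%). After a gene called at least 2-fold lower, the next was lower in 176 of 740 cases (23.8%, against 12.2%) and higher in 44 (5.95%, against 10.1%). Across genes, Spearman's rho between the log2 fold changes of a gene and its next neighbour was 0.21 over 6140 pairs, and it was 0.11 at the second neighbour, 0.08 at the third and 0.03 at the tenth. Whether the counting used strand is not given, so reads of neighbours that overlap may not be told apart, and their part in these values was not tested.

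Runs of 3 or more consecutive genes in one direction held 62 of the higher genes, in 19 runs, and 124 of the lower genes, in 38 runs. The longest higher run had 5 genes and lay on contig 3, with g944 as its second gene. Its log2 fold changes were 2.90, 4.62, 4.57, 2.94 and 2.21 in gene order.

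The first gene of that run had 176, 181 and 81.3 CPM in the tagged libraries and 14.3, 26.0 and 18.3 CPM in wild type (N). The third, one of the genes near 0 above, averaged 11.7 CPM in the tagged strain and 0.488 CPM in wild type (N). The next had 5.10, 7.92 and 14.5 CPM in the tagged libraries and 0.973, 1.22 and 1.41 CPM in wild type (N), and the last 57.0, 34.3 and 42.9 CPM against 9.10, 11.02 and 8.75 CPM. At each gene of the run the groups were apart, as at 1382 of the 1392 genes called at least 2-fold. Genes entered the run by that call, so the separation tests nothing. The tagged libraries differed among themselves, with replicate C lowest at the first gene and highest at the third and the one after it. The gene g904 stood in another run on contig 3, of 3 genes with log2 fold changes between 1.08 and 4.84. The longest lower runs also had 5 genes each, on contig 8 with log2 fold changes between -3.18 and -1.16 and on contig 9 with values between -2.62 and -1.07.

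**Figure D5:**
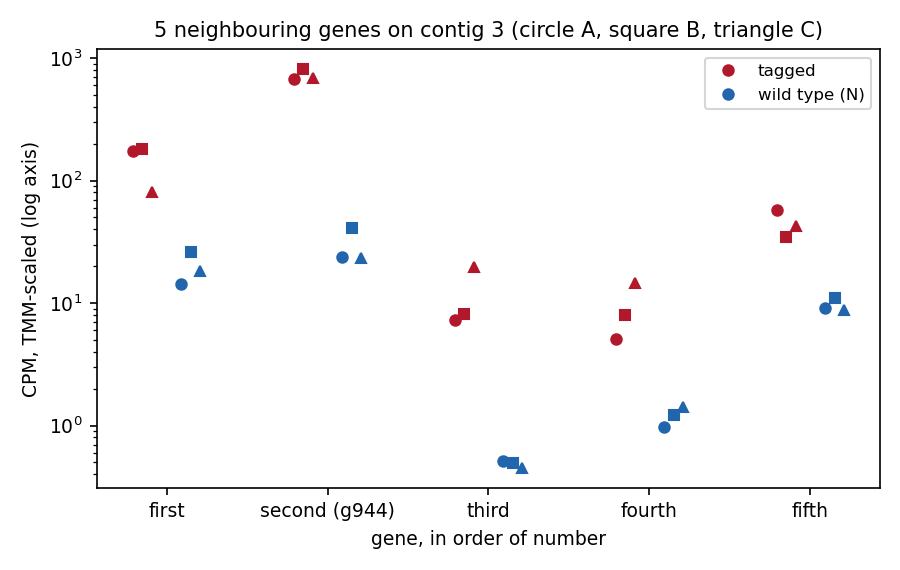
Level of the 5 consecutive genes of the longest higher run, on contig 3, in each tagged and wild type (N) library, in CPM on a log axis, in gene order with one point per library. At all 5 genes, which were chosen as called higher in these libraries, the tagged libraries lie above the wild type (N) libraries. Mean levels are 724 against 29.4 CPM at the second gene and 11.7 against 0.488 CPM at the third.

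The changed genes were found on every large contig. Across contigs 0 to 10, the share called at least 2-fold higher ran from 6.49% on contig 2 (49 of 755) to 12.9% on contig 3 (92 of 715), and the share called at least 2-fold lower from 8.15% on contig 6 (40 of 491) to 15.6% on contig 8 (59 of 377). The median log2 fold change per contig lay between -0.09 and 0.12. Contigs 11 to 21 hold 57 genes, of which 3 were tested.

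The wild type (N) libraries had the smallest spread of the 6 groups, and the tagged libraries varied more among themselves than they did. The common biological coefficient of variation, fitted for each group alone, was 17.5% in the tagged strain, 17.8% in cyp61-, 16.4% in the double mutant, 25.3% in sre1-, 27.6% in wild type (Ne) and 11.7% in wild type (N). Of 5542 genes with at least 10 CPM, 213 (3.84%) ranged over more than 2-fold among the 3 tagged libraries and 44 (0.794%) among the 3 wild type (N) libraries. Tagged replicate C stood alone more than 2-fold below both other tagged libraries for 53 genes and above them for 16, replicate A for 5 and 12 genes, and replicate B for none.

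Each tagged library alone showed the changes at about the same size. Against the mean of wild type (N), the median log2 ratio of the 632 higher genes was 1.5, 1.32 and 1.40 in replicates A, B and C, and that of the 760 lower genes -1.53, -1.42 and -1.54. The ratio was at least 2-fold in all 3 tagged libraries for 426 of the 632 genes and 564 of the 760. These sets were chosen with all 3 libraries, so this describes how evenly the libraries carry the differences.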

How the data were processed

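For each RNA-seq library the authors deposited raw read counts per gene, per the file headers total counts on an assembly named QXden1.PacBioOnly, without normalization. Headers of the tagged, cyp61-, double mutant and wild type (N) tables name paired, trimmed reads, and those of sre1- and wild type (Ne) neither. Bowtie2 2.3.5.1, DESeq2 and edgeR are among the tools named without a role in the submitters' processing notes. The sources used here give no counting tool, annotation or strand setting. ChIP-exo peak lists were not used here.

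In R 4.3.3, genes were kept by filterByExpr and scaled by TMM, and 1 quasi-likelihood model (edgeR 4.0.16) with group as its only term was fitted to all 18 libraries. P-values were Benjamini-Hochberg adjusted over 6228 genes and called under 0.05. CPM are TMM-scaled unless stated. Depth of 9300589 to 20663214 reads limits the precision of low genes, and intervals cover the spread of these libraries. No pair of replicates agreed within sampling noise (mean chi-square per gene of 21.8 or more).

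Named genes had to be called, differ at least 2-fold, average at least 100 CPM and not overlap, and the 2 with the largest fold change per direction are given. The comparison, lists and rules were chosen with earlier results of these data known. Alternatives were other scalings, filters and fits, DESeq2 1.42.0, glmTreat, the other wild-type set, a replicate block and each library left out.

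Deviations from the group mean of same-lettered tagged and wild type (N) libraries correlated at -0.13, -0.10 and -0.21, so letters were not taken to pair them. For the tagged strain and cyp61- the values were 0.32, 0.43 and 0.36. Letters were taken to pair these libraries, from the data and not from the labels. Among unlike letters, tagged A, B and C reached 0.18, 0.28 and 0.24 with wild type (N) B, C and A. The other unlike pairs lay between -0.13 and 0.009 with wild type (N) and between -0.42 and 0.003 with cyp61-. Positive values thus also arose without a shared letter, and the pairing with cyp61- was not tested.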

Additional observations from a re-analysis of the deposited data

How the results depend on the processing

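The 3380 calls became 3302 to 3494 under other scalings, the DESeq2 test and no filter on low counts, 3202 with a filter of 10 CPM, 3859 with the 2 groups alone, 3824 with the 4 groups of one set of tables and 3468 with a replicate block, and lay between 2826 and 3019 with each library left out. The 1392 genes of at least 2-fold became 488 (211 higher, 277 lower) when glmTreat tested against a log2 fold change of 1 in place of 0, a stricter question by construction, and stayed between 1323 and 1429 with each library left out. The 2004 calls against cyp61- lay between 1155 and 1820 with each library left out, and the cause was not tested. Under library totals alone, 951 genes (15.3%) were at least 2-fold higher and 542 (8.7%) lower, and the share of next genes in the same direction was 24.6% after a higher gene and 19.1% after a lower one. The 4 named genes kept direction and stayed under the adjusted p threshold against wild type (N) in all 16 alternative settings. Of the 56 recomputed main counts and values, 3 moved by over 1.5 times. They were the glmTreat count, and the count against cyp61- without tagged replicate A (1303) and without cyp61- replicate B (1155). A similar count need not hold the same genes. With wild type (Ne) as the control, 1878 of the 3380 calls kept their direction and 214 were called in the opposite one. The replicate block changed no call of a named gene against wild type (N), and against cyp61- it brought g904 under the threshold, while g3478 passed in the fit of those 6 libraries with and without it. Genes under 10 CPM are limited by depth, and which tagged strain was sequenced is not given.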

Other observations

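Genes near the ends of contigs 0 to 10 were lower more often than the rest. Among the 145 tested genes within the first or last 10 gene numbers of a contig, 31 (21.4%) were called at least 2-fold lower in the tagged strain and 19 (13.1%) at least 2-fold higher, with a median log2 fold change of -0.31. At places 11 to 20 the lower share was 12.3% of 195 genes, and beyond place 50 it was 12% of 5237 genes. Contigs 4 and 8 held 14 of the 31 lower genes among 25 tested there. The other contigs held 17 among 120, or 14.2%, against 12.2% of all tested genes. Those contigs ran from 1 of 18 on contig 9 to 2 of 6 on contig 0 and 4 of 12 on contig 5. The median level of the genes at the ends was 28.5 CPM, against 47.4 CPM beyond place 50. Whether a contig's end is a chromosome's end is not given, and the part of the lower level in the result was not tested. This pattern was looked for after the data were seen.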
